A study of Mus musculus with 8 samples.

Results

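The genes described here carry the M-CSF and RANKL signals into the macrophage nucleus: the receptors RANK (Tnfrsf11a) and M-CSF receptor (Csf1r), the adaptors Traf6 and Tab2, the transcription factor PU.1 (Spi1), and the MiT family of transcription factors (Mitf, Tfeb, Tfe3 and Tfec). They were chosen by gene symbol, and all 9 were found among the 24940 genes of the table. The cells were bone marrow-derived macrophages, precursors of bone-resorbing osteoclasts, grown from the long bones of C57BL/6 mice aged 6 to 8 weeks. Marrow cells were first kept in M-CSF at 5 ng/ml, and adherent macrophages were then raised in M-CSF at 30 ng/ml, which every group received. The 4 groups, of 2 libraries each, were NCsh without RANKL, NCsh with RANKL, TMBIM6sh without RANKL and TMBIM6sh with RANKL, where RANKL was given at 100 ng/ml for 24 h. NCsh and TMBIM6sh are hairpin names from the titles. The titles, not the treatment text, tell which libraries lack RANKL. Each side has 1 named hairpin, so loss of Tmbim6 and other actions of that hairpin cannot be told apart. Whether the libraries of a pair came from different animals or cultures is not given, and the p-values measure only the spread between these libraries.

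RANK, a receptor of the tumour necrosis factor receptor family, signals through the ubiquitin ligase TRAF6, and TAB2 links the ubiquitin chains made by TRAF6 to the kinase TAK1. The M-CSF receptor is a tyrosine kinase that keeps macrophages and osteoclast precursors alive and dividing. PU.1, an ETS-family factor, is needed to make macrophages and drives the genes of both receptors. The MiT proteins are basic helix-loop-helix leucine zipper factors that pair with themselves or with each other on E-box DNA. MITF and TFE3 act in osteoclast maturation together with PU.1, TFEB and TFE3 are known for control of lysosomal genes, and TFEC is expressed mainly in macrophages.

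The libraries held 25476000 to 28595000 sequence tags, a depth recovered from the steps in the RPKM values (tags scaled to exon length and library depth). All 10 macrophage markers reached 1 RPKM in these libraries, the M-CSF receptor gene among them. Only 1 of 8 dendritic, 1 of 8 neutrophil, 3 of 8 stromal, 1 of 8 lymphocyte and 0 of 8 erythroid, mast and basophil markers did so. The neutrophil gene Ly6g had 0 tags in every library. The targeted gene was at 309 to 334 RPKM in the NCsh libraries and at 10.0 to 11.7 RPKM in the TMBIM6sh libraries, so Tmbim6 follows the labels. In the bulk RNA used here, fewer cells of a type and less RNA per cell cannot be told apart.

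All 9 genes were expressed, over a wide span of levels. In NCsh libraries without RANKL the order by RPKM, which is per length, ran from Csf1r (265) and Spi1 (218) through Tnfrsf11a (39.8), Tfe3 (34.8) and Tab2 (29.9) to Tfeb (13.8), Mitf (7.57), Traf6 (4.75) and Tfec (3.04). No neighbours in that order had overlapping library values. With RANKL the first places changed, and Spi1 stood above Csf1r under both hairpins. Neighbours that overlapped were Tfe3 with Tab2 and Tfec with Traf6 in NCsh libraries with RANKL, and Tnfrsf11a with Tfe3 in TMBIM6sh libraries without it. Among genes with a value above 0 in NCsh libraries without RANKL, Csf1r lay at the 98.9th percentile and Tfec at the 52.3rd. The least covered gene, Tfec, had 86 to 303 tags per library, and Mitf had 790 to 1334, against 14560 to 29307 for Csf1r.

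**Figure D1:**
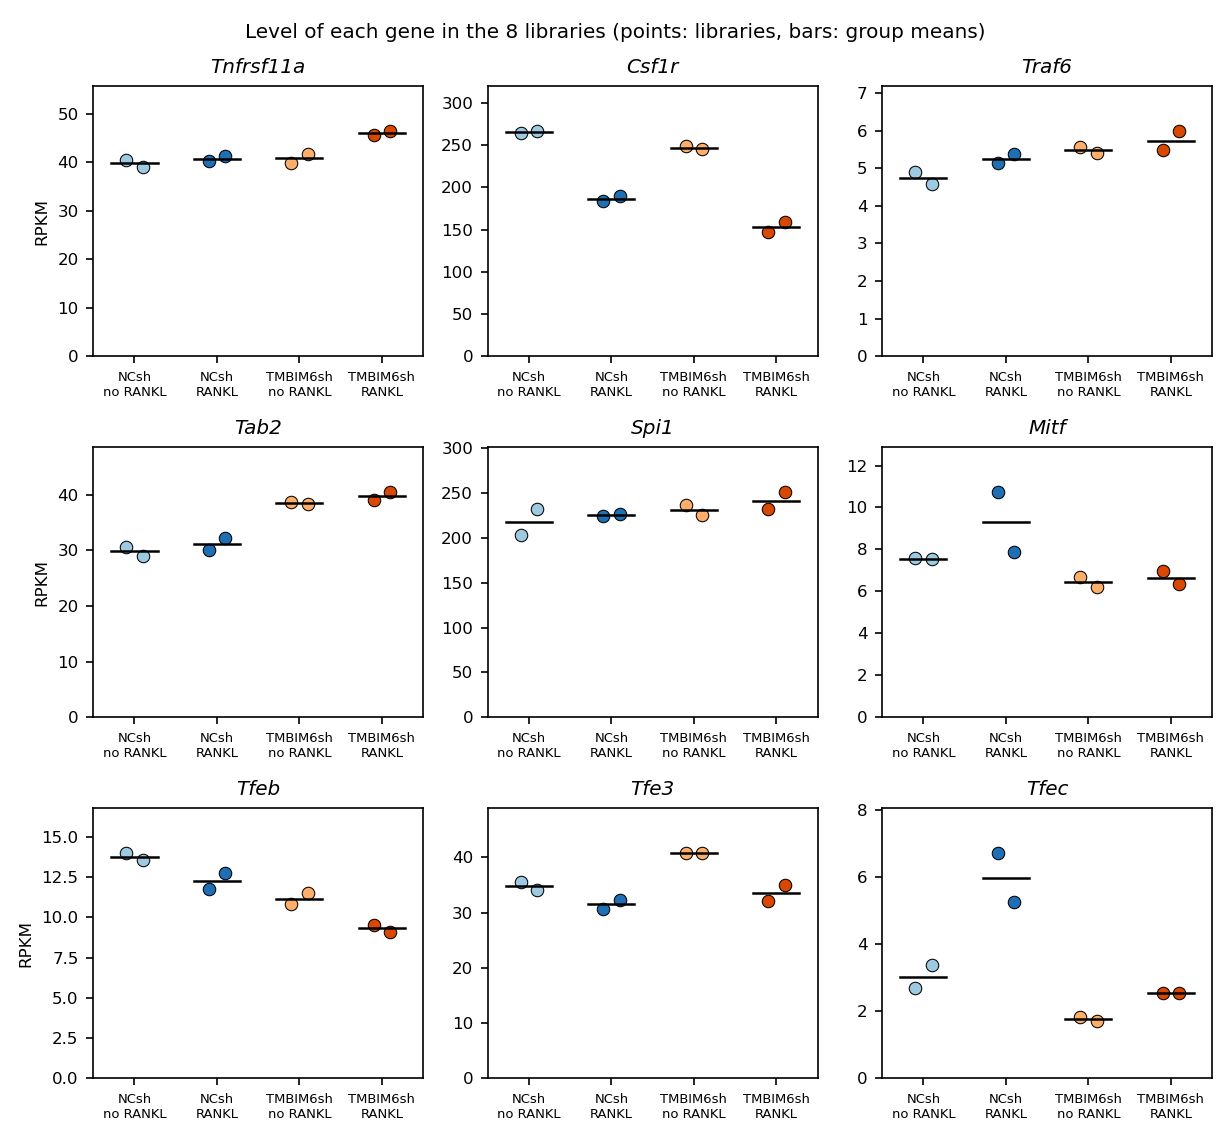
Each panel shows the level of 1 gene in RPKM (vertical axis, starting at 0) in the 4 groups. Points are single libraries and bars are group means. Csf1r drops with RANKL under both hairpins, Tab2 is higher in the 4 TMBIM6sh libraries, and Tfec is highest in the NCsh libraries with RANKL.

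All 9 genes passed the expression filter and were tested with limma on log2(RPKM + 1), a scale that understates the change of low genes such as Tfec and Traf6. Adjusted p-values are Benjamini-Hochberg values over 11040 genes, and "called" means an adjusted p under 0.05. RANKL changed 2 of the 9 genes in NCsh libraries, where 15% of all tested genes were called. It changed 2 of 9 in TMBIM6sh libraries, against 15.4% of all genes. The hairpin changed 4 of 9 without RANKL, against 24.2%, and 6 of 9 with RANKL, against 28.6%. Averaged over the other factor, RANKL changed 4 of 9 against 26.7% of all genes, and the hairpin changed 6 of 9 against 40.6%. With only 9 genes, these counts are set beside the backgrounds as a description. In the interaction, which asks whether RANKL acted differently under the 2 hairpins, limma called 0 of the 9, against 0.00906% of all genes. At an unadjusted p under 0.05 the interaction held 1 of the 9 genes, Tfec, and 857 of the 11040. The 4 simple comparisons share libraries with each other, as each group enters 2 of them.

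**Figure D2:**
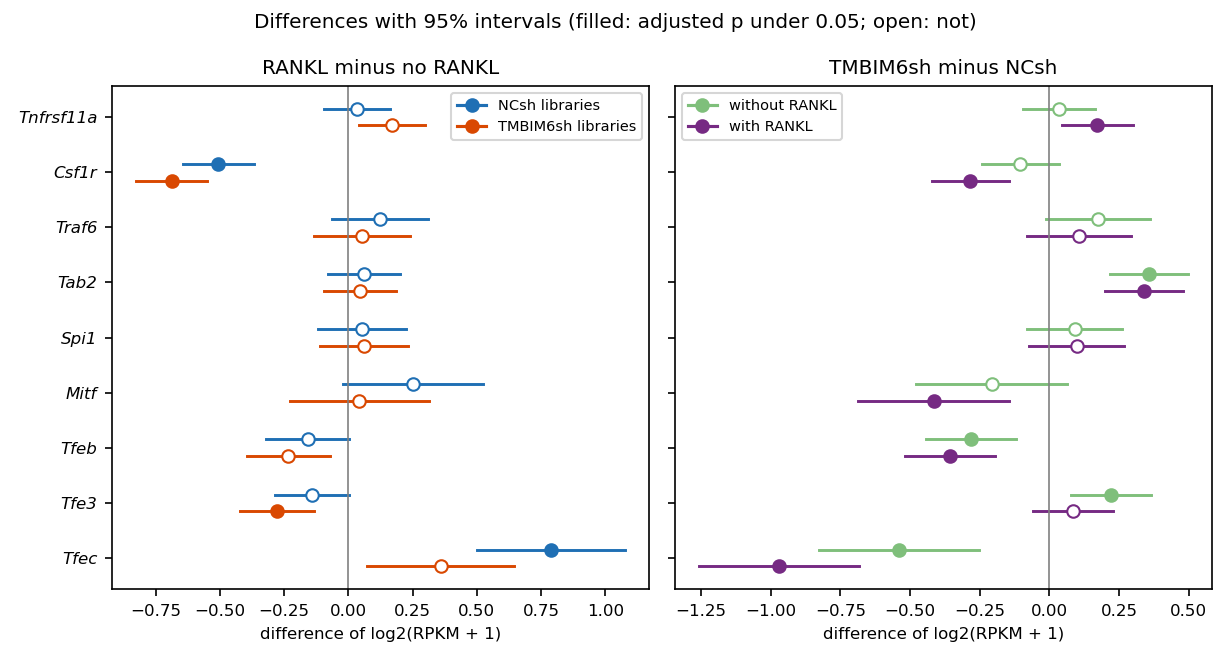
Differences of log2(RPKM + 1) from limma with 95% intervals, RANKL minus no RANKL on the left and TMBIM6sh minus NCsh on the right. Filled points passed an adjusted p of 0.05. Csf1r under RANKL and Tfec under both factors lie farthest from 0.

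Csf1r, the receptor gene for M-CSF, fell with RANKL under both hairpins. Its RPKM was 264 and 267 in NCsh libraries without RANKL and 184 and 189 with it. In TMBIM6sh libraries the values were 249 and 245 without RANKL and 147 and 159 with it. The 4 groups did not overlap: the libraries without RANKL were all above those with it, and within each state NCsh was above TMBIM6sh. With RANKL the mean fell by 29.7% in NCsh libraries (log2 difference -0.51, SE 0.0615, adjusted p 0.000915). In TMBIM6sh libraries it fell by 38.0% (-0.69, adjusted p 0.000111). Between hairpins, Csf1r was called lower in the TMBIM6sh libraries with RANKL (-0.28, SE 0.0615, adjusted p 0.00762), a change of the mean of -17.9%. That call was lost without NCsh RANKL replicate 2 (-0.26, adjusted p 0.0668). Without RANKL the hairpin difference was -0.10 (95% interval -0.24 to 0.03, adjusted p 0.260). The RANKL effects under the 2 hairpins differed by -0.18 (95% interval -0.38 to 0.01), with an adjusted p of 0.641 for the interaction. Csf1r lies on chromosome 18 at 61105572 to 61131139 of mm10, plus strand, with 22 exons in the listed transcript.

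Csf1r was also set beside other macrophage markers. Of the 10 markers, which include Csf1r itself, 6 were called lower with RANKL in NCsh libraries and 6 in TMBIM6sh libraries. In either, 0 were called higher. Over all tested genes 15% and 15.4% were called, with 439 and 761 of 11040 lower. The marker medians were -0.41 and -0.48, against 0.06 and 0.02 over all genes. Adgre1, which encodes the macrophage surface protein F4/80, averaged 817 RPKM without RANKL and 879 with it in NCsh libraries, and 747 and 861 in TMBIM6sh libraries. The IgG receptor genes Fcgr1 and Fcgr3 averaged 7.97 and 101 RPKM in NCsh libraries without RANKL, and 3.41 and 64.0 RPKM with it. The summed level of the 10 markers was 9494 to 10906 RPKM in NCsh libraries without RANKL and 9267 to 9344 with RANKL. In TMBIM6sh libraries the sum was 8701 to 8703 without RANKL and 7554 to 8177 with it. The largest part of each sum was Lyz2, which averaged 7435, 6830, 6151 and 5497 RPKM in the same order. The part of these marker values in the fall of Csf1r was not tested.

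Tnfrsf11a, the gene of RANK, was called in 1 of the 4 simple comparisons, the TMBIM6 hairpin with RANKL. NCsh libraries held 40.5 and 39.1 RPKM without RANKL, and 40.2 and 41.3 with it. TMBIM6sh libraries held 39.9 and 41.6 RPKM without RANKL, and 45.6 and 46.4 with it. Only the last pair lay above all the other libraries, and the other 3 groups overlapped. With RANKL, Tnfrsf11a was called higher in TMBIM6sh than in NCsh libraries (log2 difference 0.17, SE 0.0569, adjusted p 0.0480), a mean 12.9% higher. The call stood close to the threshold and was lost under 10 of the 16 alternative settings, among them 6 of the 8 fits that left out 1 library, with adjusted p up to 0.210. For RANKL itself the difference was 0.17 under the TMBIM6 hairpin (adjusted p 0.0749) and 0.03 under NCsh (adjusted p 0.740). The interaction was 0.14 (95% interval -0.04 to 0.32, adjusted p 0.697). Averaged over RANKL states the hairpin difference was 0.10 (adjusted p 0.0664). Over the 16 alternative settings the hairpin difference with RANKL ran from 0.15 to 0.24. The gene lies on chromosome 1 at 105780723 to 105847981, plus strand, with 10 exons.

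The balance of the receptor messages shifted with Csf1r. The ratio of Csf1r to Tnfrsf11a RPKM under NCsh was 6.67 ± 0.211 (SD, n = 2) without RANKL and 4.58 ± 0.0196 with it. Under the TMBIM6 hairpin it was 6.06 ± 0.248 (SD, n = 2) without RANKL and 3.33 ± 0.147 with it. The lowest ratio was thus in TMBIM6sh libraries with RANKL, and no library of any group crossed into another.

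Tab2, the adaptor that bridges TRAF6 and TAK1, was higher with the TMBIM6 hairpin, with or without RANKL. Its RPKM was 30.7 and 29.0 in NCsh libraries without RANKL and 30.1 and 32.3 with it, against 38.7 and 38.3 and then 39.0 and 40.5 in TMBIM6sh libraries. All 4 TMBIM6sh libraries lay above all 4 NCsh libraries. The log2 difference was 0.36 (SE 0.0622, adjusted p 0.00294) without RANKL and 0.34 (adjusted p 0.00326) with it, means 28.9% and 27.4% higher. Tab2 did not pass for RANKL under either hairpin, with 95% intervals of -0.08 to 0.20 in NCsh and -0.10 to 0.18 in TMBIM6sh libraries. The gene lies on chromosome 10 at 7905648 to 7956123, minus strand, with 7 exons.

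Traf6, the ubiquitin ligase that RANK recruits, did not pass in any comparison. Its RPKM was 4.91 and 4.59 in NCsh libraries without RANKL, 5.14 and 5.37 with it, 5.56 and 5.40 in TMBIM6sh libraries without RANKL, and 5.48 and 5.99 with it. All 4 TMBIM6sh libraries lay above all 4 NCsh libraries, by little. The hairpin difference was 0.17 without RANKL (95% interval -0.01 to 0.36, adjusted p 0.168) and 0.11 with it (-0.08 to 0.29, adjusted p 0.377). Averaged over both states it was 0.14 (adjusted p 0.0867), and after median-ratio scaling of the libraries it was 0.18 with an adjusted p of 0.0353. Traf6 lies on chromosome 2 at 101678420 to 101701668, plus strand, with 8 exons.

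Spi1, the gene of PU.1, lay at the 98.7th percentile of expressed genes in NCsh libraries without RANKL and did not pass in any comparison. It was at 203 and 232 RPKM in NCsh libraries without RANKL and 224 and 226 with it. In TMBIM6sh libraries it was at 237 and 226 RPKM without RANKL and 232 and 251 with it. Groups overlapped in each comparison except the hairpins with RANKL, where both TMBIM6sh libraries were higher. The 95% intervals of the RANKL difference were -0.12 to 0.22 in NCsh and -0.11 to 0.23 in TMBIM6sh libraries on the log2 scale, and those of the hairpin difference -0.08 to 0.26 without and -0.07 to 0.27 with RANKL. The averaged hairpin difference of 0.09 (adjusted p 0.193) reached an adjusted p of 0.0328 after median-ratio scaling, at 0.14. Spi1 lies on chromosome 2 at 91096678 to 91115759, plus strand, with 5 exons.

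The MiT genes gave calls in both directions: in TMBIM6sh against NCsh libraries without RANKL, Tfe3 was higher and Tfeb and Tfec were lower. The DNA before the start of each listed transcript differs widely in CG content, so these 250-base stretches are shown for the 4 paralogs. They come from RefSeq sequences of GRCm38.p6, the build that mm10 names, and 7 of the 9 genes matched an entry. Each runs 5′ to 3′ on the strand of the gene and ends at the base before the start site, with CG pairs in capitals. Mitf lies at chr6:97806808-97807057 on the plus strand, Tfeb at chr17:47736787-47737036 on the plus strand, Tfe3 at chrX:7763693-7763942 on the plus strand and Tfec at chr6:16898442-16898691 on the minus strand.
Mitf: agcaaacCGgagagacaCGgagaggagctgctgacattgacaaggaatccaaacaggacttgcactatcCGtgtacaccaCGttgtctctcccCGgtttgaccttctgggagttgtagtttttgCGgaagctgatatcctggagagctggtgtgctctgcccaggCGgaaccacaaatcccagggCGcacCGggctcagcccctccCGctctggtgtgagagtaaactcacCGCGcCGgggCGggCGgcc
Tfeb: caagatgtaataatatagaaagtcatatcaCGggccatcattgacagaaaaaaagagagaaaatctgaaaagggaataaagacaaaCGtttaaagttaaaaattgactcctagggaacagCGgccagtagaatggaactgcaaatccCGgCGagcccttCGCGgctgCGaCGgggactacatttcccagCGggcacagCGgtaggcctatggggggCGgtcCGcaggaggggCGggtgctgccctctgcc
Tfe3: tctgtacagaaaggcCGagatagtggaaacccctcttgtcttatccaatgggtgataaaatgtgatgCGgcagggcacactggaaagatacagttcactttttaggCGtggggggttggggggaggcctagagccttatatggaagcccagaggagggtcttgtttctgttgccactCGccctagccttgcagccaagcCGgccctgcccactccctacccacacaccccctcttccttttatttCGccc
Tfec: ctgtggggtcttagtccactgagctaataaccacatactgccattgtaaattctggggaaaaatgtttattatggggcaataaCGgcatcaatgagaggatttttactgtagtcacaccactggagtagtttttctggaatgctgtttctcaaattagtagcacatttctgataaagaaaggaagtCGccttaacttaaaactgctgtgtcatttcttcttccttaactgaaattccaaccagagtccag

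The Tfec stretch held 2 CG pairs, against 6 in Tfe3, 14 in Tfeb and 15 in Mitf. Its GC content was 39.2%, above that of 10.3% of 32851 mouse promoters, whose median was 52.4% with 6 CG pairs. The Tfe3 stretch had 54.8% GC, that of Tfeb 51.6% and that of Mitf 59.6%. The receptor and adaptor promoters of Tnfrsf11a and Tab2 were GC-rich, at 73.6% and 76.8%, and Traf6 lay between at 56.4%.

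Short motifs were searched on both strands over 300 bases, from 250 before to 50 from the start site onward, with positions counted from 0 at the start site. The letters searched were GAGGAA, the core of PU.1 sites, CACGTG and CATGTG, E-boxes of MiT factors, and TGANTCA, the AP-1 site. Among all 32851 promoters 28.3% held GAGGAA, 7.15% CACGTG, 14.2% CATGTG and 7.81% TGANTCA. Of the 7 genes read, without Csf1r and Spi1, Traf6 held GAGGAA at -161 to -156 and at -106 to -101. Tfec held it on the opposite strand at 33 to 38, and Tfe3 held TGANTCA at 34 to 40. The matches stand in capitals on the strand of the gene, with Traf6 at chr2:101678248-101678275 and chr2:101678303-101678330, Tfec at chr6:16898392-16898419 and Tfe3 at chrX:7763966-7763992. Neither E-box was in these windows. A match of letters is a description and shows no binding.
Traf6 first: tgcactggtccGAGGAAgggctacgtga
Traf6 second: aacttctttgcGAGGAAgggcggggtaa
Tfec: ctcttttctccTTCCTCaactaagcgga
Tfe3: gggtgtaatctTGAATCAgtctctaga

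Tfec was the lowest of the 9 genes in 3 of the 4 groups and moved the most. Its RPKM was 2.69 and 3.39 in NCsh libraries without RANKL and 6.72 and 5.26 with it. In TMBIM6sh libraries it was 1.83 and 1.70 without RANKL and 2.55 and 2.54 with it. The 4 groups did not overlap, and NCsh libraries with RANKL were the highest. RANKL raised the mean 1.97-fold in NCsh libraries (log2 difference 0.79, SE 0.128, adjusted p 0.00332). In TMBIM6sh libraries the ratio was 1.44, and the difference of 0.36 missed the threshold (95% interval 0.07 to 0.65, adjusted p 0.0930).

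Between hairpins, Tfec averaged 0.425 times the NCsh level with RANKL (log2 difference -0.97, SE 0.128, adjusted p 0.000549) and 0.581 times without it (-0.54, adjusted p 0.0137). The call with RANKL and the RANKL call in NCsh libraries stood under all 16 alternatives, while the call without RANKL was lost when NCsh No RANKL replicate 2 (adjusted p 0.0830) or either TMBIM6sh No RANKL library (0.0542 and 0.0777) was left out, or with no filter on low values (0.0623). The interaction of -0.43 (95% interval -0.84 to -0.02) had an unadjusted p of 0.0402 and an adjusted p of 0.633 in limma, so a smaller RANKL response with the TMBIM6 hairpin was not established. The values rest on 86 to 303 tags. Tfec lies on chromosome 6 at 16833381 to 16898441, minus strand, with 7 exons.

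Tfeb, the member best known for lysosomal gene control, was lower with the TMBIM6 hairpin. It was at 14.0 and 13.5 RPKM in NCsh libraries without RANKL, 11.8 and 12.7 with it, 10.8 and 11.5 in TMBIM6sh libraries without RANKL, and 9.55 and 9.11 with it. NCsh libraries lay above TMBIM6sh libraries in each RANKL state. The mean fell by 19.0% without RANKL (log2 difference -0.28, SE 0.0722, adjusted p 0.0194). With RANKL it fell by 23.8% (-0.36, adjusted p 0.00534). The first of these calls was lost without NCsh No RANKL replicate 1 (adjusted p 0.0645) or either TMBIM6sh No RANKL library (0.137 and 0.0579), the second in none of the 16 alternatives. RANKL gave -0.16 in NCsh libraries, with an adjusted p of 0.175. In TMBIM6sh libraries it gave -0.23, with an adjusted p of 0.0570. Averaged over hairpins, the RANKL difference of -0.20 passed (adjusted p 0.0191), but not without NCsh RANKL replicate 1 (0.0752), TMBIM6sh No RANKL replicate 2 (0.0792) or TMBIM6sh RANKL replicate 2 (0.0606). Tfeb lies on chromosome 17 at 47737037 to 47792416, plus strand, with 9 exons.

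Tfe3, the most abundant MiT message, went the other way between hairpins. Its RPKM was 35.6 and 34.1 in NCsh libraries without RANKL and 30.7 and 32.3 with it. In TMBIM6sh libraries it was 40.8 and 40.7 without RANKL and 32.1 and 35.0 with it. The TMBIM6sh libraries without RANKL were the highest, and the hairpin groups overlapped with RANKL. Tfe3 was 17.0% higher with the TMBIM6 hairpin without RANKL (log2 difference 0.22, SE 0.0641, adjusted p 0.0332), a call kept under 8 of the 16 alternatives, with adjusted p up to 0.151. With RANKL the hairpin difference was 0.08 (95% interval -0.06 to 0.23, adjusted p 0.355). Under RANKL the Tfe3 mean fell by 17.8% in TMBIM6sh libraries (-0.28, adjusted p 0.0171), a call lost without any of TMBIM6sh No RANKL replicate 1, TMBIM6sh No RANKL replicate 2 or TMBIM6sh RANKL replicate 1 (adjusted p 0.108 to 0.109). In NCsh libraries the RANKL difference was -0.14 (adjusted p 0.177), and after median-ratio scaling it was -0.22 with an adjusted p of 0.0364. The interaction was -0.14 (95% interval -0.34 to 0.07, adjusted p 0.730). Tfe3 lies on chromosome X at 7763943 to 7775202, plus strand, with 10 exons.

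Mitf, whose protein pairs with TFE3 in osteoclasts, was called lower with the TMBIM6 hairpin in the presence of RANKL and in the average over RANKL states. It was at 7.59 and 7.55 RPKM in NCsh libraries without RANKL, at 10.7 and 7.86 with it, at 6.66 and 6.19 in TMBIM6sh libraries without RANKL, and at 6.96 and 6.34 with it. All 4 TMBIM6sh libraries lay below all 4 NCsh libraries, and NCsh RANKL replicate 1 stood above all others. With RANKL the TMBIM6sh mean differed by -28.5% (log2 difference -0.42, SE 0.121, adjusted p 0.0291). Without NCsh RANKL replicate 1 the difference was -0.21 (adjusted p 0.194), and the call was also lost without TMBIM6sh RANKL replicate 1 (0.0708) or replicate 2 (0.148), without a filter (0.104), after scaling (0.0577) and in its own 4 libraries alone (0.0557). Without RANKL the difference was -0.21 (95% interval -0.48 to 0.06, adjusted p 0.254). Averaged over RANKL states it was -0.31 (adjusted p 0.0163), a call that 12 of 15 alternatives gave and that had an adjusted p of 0.0388 without NCsh RANKL replicate 1. RANKL gave 0.25 in NCsh libraries (95% interval -0.02 to 0.52, adjusted p 0.197) and 0.04 under the TMBIM6 hairpin (adjusted p 0.868). Without NCsh RANKL replicate 2 the first of these was 0.45 and passed (adjusted p 0.0302). Mitf lies on chromosome 6 at 97807058 to 98021358, plus strand, with 10 exons in the listed transcript, and 8 transcripts are annotated. The gene value does not separate these, so isoforms were not analysed here.

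MiT proteins form dimers with each other, so the makeup of the family was also set out as the share of each gene in the summed RPKM of the 4. Under NCsh the sum was 59.2 ± 0.869 RPKM (SD, n = 2) without RANKL and 59.0 ± 1.29 with it. It was 60.1 ± 0.0156 in TMBIM6sh libraries without RANKL and 52.0 ± 1.31 with it. Tfe3 made up 58.8% of the sum in NCsh libraries without RANKL, 53.4% with it, 67.8% in TMBIM6sh libraries without RANKL and 64.4% with it. Tfec made up 5.14%, 10.1%, 2.94% and 4.89% in the same order. Tfeb made up 23.3%, 20.8%, 18.6% and 17.9%, and Mitf 12.8%, 15.7%, 10.7% and 12.8%.

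Averaged over RANKL states, the TMBIM6sh minus NCsh difference in share was 9.97 percentage points for Tfe3, -3.76 for Tfeb, -3.71 for Tfec and -2.50 for Mitf. In each RANKL state both TMBIM6sh libraries lay above both NCsh libraries for Tfe3 and below them for Tfeb and Tfec. An exact two-sided permutation test within RANKL states has 36 arrangements and a smallest p of 0.0556, which Tfe3, Tfeb and Tfec each reached (adjusted over the 4 shares, 0.0741). Mitf had an exact p of 0.111, as 1 NCsh library with RANKL, at 13.5%, lay below a TMBIM6sh library at 13.6%. The design could not pass 0.05 in this test.

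**Figure D3:**
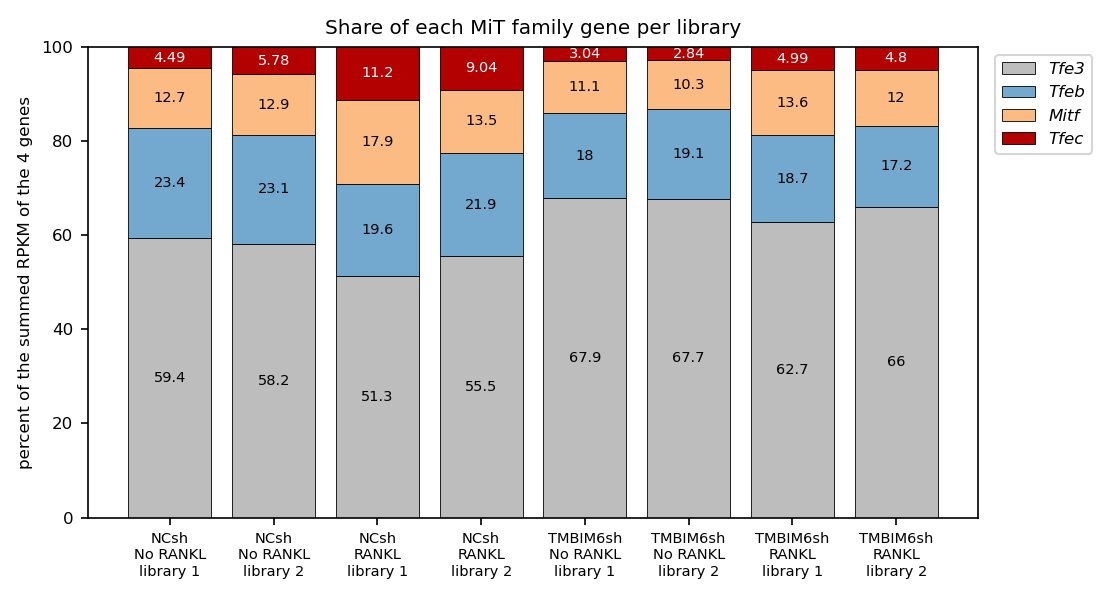
Share of Mitf, Tfeb, Tfe3 and Tfec in the summed RPKM of the 4 genes (vertical axis, percent) in each of the 8 libraries, with the share printed in each segment. Tfe3 takes 51.3% to 59.4% in NCsh libraries and 62.7% to 67.9% in TMBIM6sh libraries.

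Of the neutrophil markers, only S100a8 passed the filter, and it was lower with the TMBIM6 hairpin. The summed level of the 8 neutrophil markers was 22.8 to 28.4 RPKM in the NCsh libraries and 11.8 to 15.9 RPKM in the TMBIM6sh libraries. This sum came almost wholly from S100a8, which averaged 25.0 RPKM without RANKL under NCsh and 13.3 RPKM under the TMBIM6 hairpin, while the defining markers Ly6g, S100a9, Mpo and Elane were at or near 0 in all 8 libraries. Ly6g was at 0, S100a9 at most 0.146 RPKM, Elane at most 0.154 RPKM and Mpo at most 0.042 RPKM.

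The genes around RANK were read from a list of 22, of which 20 passed the filter. RANKL raised 5 and lowered 0 of the 20 in NCsh libraries, with a median log2 difference of 0.20 against 0.06 over all genes, and raised 5 and lowered 0 in TMBIM6sh libraries (median 0.09 against 0.02). Traf1, an adaptor induced by NF-kappaB, rose from 2.02 to 22.6 RPKM in NCsh libraries (log2 difference 2.97, adjusted p 1.27e-07) and from 1.62 to 21.6 RPKM in TMBIM6sh libraries. Traf2, another adaptor of the family, rose from 8.79 to 14.4 and from 7.41 to 14.8 RPKM. Traf3, which restrains the alternative NF-kappaB path, rose with RANKL from 6.58 to 11.1 and from 9.76 to 15.6 RPKM, and was higher with the TMBIM6 hairpin in both states (0.51 and 0.45, adjusted p 0.000771 and 0.00126). Beside these, Traf6 values spanned 4.59 to 5.99 RPKM over all 8 libraries. With the hairpin, 3 of the 20 were higher and 2 lower without RANKL, and 1 was higher and 1 lower with it, where median-ratio scaling gave 5 higher and 1 lower. Over all genes 24.2% and 28.6% were called for the hairpin in these states, and 15% and 15.4% for RANKL. The RANK ligand gene Tnfsf11 had at most 0.068 RPKM and the decoy receptor gene Tnfrsf11b at most 0.15 RPKM.

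Downstream of the M-CSF receptor, 21 of 22 listed genes were tested. With RANKL 2 rose and 5 fell in NCsh libraries, and 2 rose and 5 fell in TMBIM6sh libraries. The list medians were -0.02 and -0.08, against 0.06 and 0.02 over all genes, of which 15% and 15.4% were called for RANKL. The kinase gene Lyn fell from 131 to 104 RPKM in NCsh libraries (-0.34, adjusted p 0.00533) and from 130 to 92.7 RPKM in TMBIM6sh libraries (-0.49), alongside Csf1r. Src, which acts below both receptors, rose from 5.68 to 9.62 RPKM (0.67, adjusted p 0.00116) and from 6.66 to 11.2 RPKM. With the TMBIM6 hairpin 2 were higher and 4 lower in each RANKL state, against 24.2% and 28.6% of all genes called, a share near that background. The medians were -0.05 without RANKL and -0.11 with it, against -0.02 and -0.07. Pik3r1, the regulatory subunit of phosphoinositide 3-kinase, was lower with the TMBIM6 hairpin. It was at 4.78 against 11.9 RPKM without RANKL (-1.15, adjusted p 4.05e-05) and at 5.01 against 14.3 RPKM with RANKL (-1.34). The adaptor gene Pik3ap1 was higher, at 168 against 127 RPKM and at 146 against 108 RPKM. Il34, the second ligand of the receptor, had at most 0.222 RPKM.

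Spi1 was also set beside partners of PU.1 and other myeloid factors, of which 17 of 24 listed genes were tested. With RANKL 1 rose and 5 fell in NCsh libraries, and 1 rose and 8 fell in TMBIM6sh libraries. Of all genes 15% and 15.4% were called for RANKL. The list medians were -0.12 and -0.22, against 0.06 and 0.02 over all genes. Irf8, which binds DNA together with PU.1, fell from 52.4 to 35.9 RPKM (-0.53, adjusted p 0.000935) and from 53.5 to 32.8 RPKM (-0.69). Ets2, an ETS factor like PU.1, fell with RANKL from 53.8 to 41.2 and from 80.0 to 57.9 RPKM. Ets2 was higher with the TMBIM6 hairpin (0.56 and 0.48, adjusted p 0.000248 and 0.000495). For the hairpin, 4 of the 17 were higher and 2 lower without RANKL, and 3 were higher and 5 lower with it. Of all genes 24.2% and 28.6% were called in these states. The list medians were 0.01 and -0.13, against -0.02 and -0.07 over all genes. Among the lower genes were Egr1 without RANKL (-0.61, adjusted p 0.00379) and Cebpb with it (-0.32, adjusted p 0.0109).

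Among 20 regulators of MiT proteins, such as the mTORC1 and calcineurin genes, RANKL raised 1 and lowered 1 in NCsh libraries and lowered 2 in TMBIM6sh libraries. The hairpin raised 3 and lowered 3 without RANKL, and raised 2 and lowered 5 with it. These counts stood beside 15% and 15.4% of all genes called for RANKL, and 24.2% and 28.6% for the hairpin. The list medians in the same order were -0.02, -0.08, -0.07 and -0.14, against 0.06, 0.02, -0.02 and -0.07 over all genes. Ppp3ca encodes the catalytic subunit of calcineurin, the phosphatase that releases TFEB to the nucleus. In TMBIM6sh against NCsh libraries Ppp3ca was at 26.1 against 14.3 RPKM without RANKL (0.83) and at 23.6 against 14.0 RPKM with it (0.71). The regulatory subunit gene Ppp3r1 was lower in TMBIM6sh than in NCsh libraries without RANKL, at 49.1 against 59.0 RPKM (-0.26, adjusted p 0.0155). With RANKL it was at 53.4 against 65.1 RPKM, and averaged over RANKL states the difference was -0.27 (adjusted p 0.00108). Fnip2 works with folliculin on the Rag GTPases. With RANKL present it was lower in TMBIM6sh than in NCsh libraries, at 53.8 against 71.6 RPKM (-0.41, adjusted p 0.00194).

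Lysosomal and autophagy genes known as MiT targets were read from a list of 30, of which 29 were tested. With the TMBIM6 hairpin 1 was higher and 6 lower without RANKL, and 1 was higher and 10 lower with it, against 24.2% and 28.6% of all genes called. The medians were -0.12 and -0.16, against -0.02 and -0.07 over all genes, and median-ratio scaling gave 3 higher and 8 lower with RANKL. Averaged over RANKL states, where 40.6% of all genes were called, 1 was higher and 14 lower, with a median of -0.13 against -0.05 over all genes. For that average the scaling gave 4 higher and 11 lower, with a median of -0.09 against -0.01. Naglu, a lysosomal glycosidase, was lower in TMBIM6sh than in NCsh libraries. It was at 23.1 against 35.3 RPKM without RANKL (-0.59, adjusted p 0.000439) and at 22.9 against 34.7 RPKM with RANKL (-0.58). Ctsd, the protease cathepsin D, was at 3360 against 4673 RPKM without RANKL (-0.47, adjusted p 0.00773). With RANKL itself, 1 rose and 2 fell in NCsh libraries, where scaling gave 0 and 7, and 0 rose and 4 fell in TMBIM6sh libraries. Of all genes 15% and 15.4% were called for RANKL.

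Of 14 listed osteoclast genes known to be bound by PU.1, MITF or NFATc1, 8 passed the filter and 6 did not, among them Ctsk at no more than 0.075 RPKM and Calcr at no more than 0.011 RPKM. Of the 8 tested, RANKL raised 1 and lowered 1 in NCsh libraries and raised 1 and lowered 2 in TMBIM6sh libraries, against 15% and 15.4% of all genes called. The medians were 0.04 and 0.10, against 0.06 and 0.02 over all genes. Mmp9, a gelatinase, rose from 12.7 to 30.2 RPKM in NCsh libraries (1.18) and from 21.9 to 71.4 RPKM in TMBIM6sh libraries (1.66). Atp6v0d2, a subunit of the vacuolar proton pump, fell from 14.9 to 12.2 RPKM (-0.27, adjusted p 0.0309) and from 9.92 to 6.71 RPKM (-0.50, adjusted p 0.00121).

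The genes with the pattern most like each of the 9 were found by the root mean square difference of centred log2(RPKM + 1) over the 8 libraries, keeping tested genes whose mean reached 5 RPKM. For Tfec these were Ndc80 (0.110), Cdca3 (0.114) and Ncaph (0.122), all genes of cell division, against a spread of Tfec itself of 0.497. Ndc80, a kinetochore gene, averaged 4.80 RPKM in NCsh libraries without RANKL, 8.37 with it, 2.73 in TMBIM6sh libraries without RANKL and 4.26 with it. Cdca3 averaged 5.25, 9.69, 3.04 and 5.08 RPKM in the same order, and the condensin gene Ncaph 7.38, 11.8, 4.27 and 6.63 RPKM. All 3 were called in the 4 simple comparisons, while Tfec itself was not called for RANKL in TMBIM6sh libraries. They were picked for likeness to Tfec in these same libraries, so sharing its direction follows from the choice. For Csf1r the nearest genes were Esyt1 (0.0333), the receptor gene Tlr13 (0.0363) and March1 (0.0395), against a spread of 0.319. Tlr13 averaged 128, 94.5, 126 and 77.2 RPKM in the same order as above. For Tfeb they were Tlr7, Mocs2 and Tspan14 (0.0339 to 0.0444, spread 0.192), and for Tab2 they were Hdlbp, Gpbp1 and Sppl2a (0.0203 to 0.0343, spread 0.180). For Tfe3 they were Zswim6, Dennd1a and Sh2b3 (0.0304 to 0.0320, spread 0.139) and for Mitf Gbp3, Stk11ip and Ankra2 (0.0676 to 0.0777, spread 0.210). The spreads of Tnfrsf11a, Traf6 and Spi1 were only 0.0832, 0.0922 and 0.0800, so their nearest genes (Dusp4, Dcaf7 and Commd10 first) are those with little change.

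**Figure D4:**
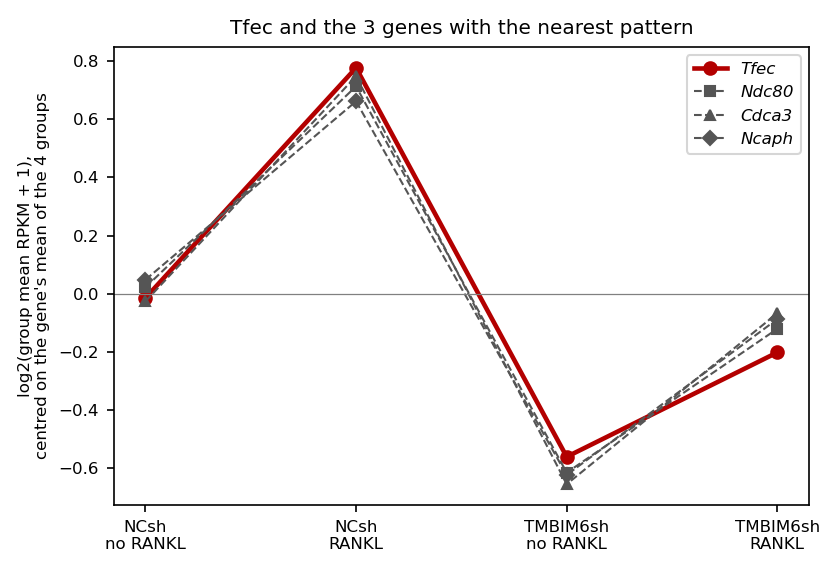
Tfec and its 3 nearest genes, as log2 of the group mean RPKM plus 1, centred on the mean of each gene over the 4 groups. The 4 lines share their highest point in NCsh libraries with RANKL and their lowest in TMBIM6sh libraries without it.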

How the data were processed

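RNA of 8 libraries was analysed as RPKM, which the authors made with HOMER analyzeRepeats on mm10 RefSeq genes, per the file header. Exonic tags of either strand were counted, with isoforms condensed, divided by exon length, the table's other numeric column, and by library tags. Column heads say FPKM. The submitters' processing notes also name HISAT2 and DESeq2. Depth was recovered from the steps of low values: 100% of the 2128 to 2317 low values examined in a library were whole tags, to within 0.1. Of the tags 83.5% to 86.4% lay in exons.

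Genes reaching 1 RPKM in 2 or more libraries were tested as log2(RPKM + 1) with limma 3.58.1 in R 4.3.3 across all 8 libraries, with an intensity trend (4 residual and 5.54 prior degrees of freedom), and checked on simulated data. P-values were adjusted by the Benjamini-Hochberg method over all tested genes. List genes named are at most 4 per comparison, those with the smallest adjusted p, and some that this rule names are not reported here. Duplicates correlated at 0.993 to 0.995 across genes and differed by more than counting noise. Alternatives covered pseudocount, filter, scaling, trend, replicate block and left-out libraries. In GENCODE M21, 0 other genes shared exon bases with the 9. The genes and lists were chosen with earlier results of these data known.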

Additional observations from a re-analysis of the deposited data

How the results depend on the processing

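Of 24 calls on the 9 genes, 14 held under every alternative and 24 kept their direction under every alternative. These calls pool the simple comparisons with the averages built from them, so 1 gene can count several times. Without a filter on low values 2 of the 9 genes were called for the hairpin without RANKL, against 4. Over all genes that comparison called 1988 of 18292 without the filter, against 2673 of 11040 with it. Leaving out 1 library at a time gave 1 to 4 genes there, and 1 to 3 for RANKL in TMBIM6sh libraries, against 2. For the averaged hairpin 6 of the 9 genes were called, and 9 after median-ratio scaling. Over all 11040 genes 4487 were called for it, and 4595 after scaling. The hairpin differences in the 4 MiT shares kept their direction when each library was left out.

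Deviations of same-numbered libraries correlated at -0.0651 to 0.0625 across genes, which does not tell whether they shared an animal or culture. With a replicate block 5 of the 9 genes were called for the hairpin with RANKL, against 6, as Tnfrsf11a had an adjusted p of 0.0585. The block changed no other call on the 9 genes. Over all genes it gave 3128 calls for the hairpin with RANKL, against 3157.

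Scaling moved the split of calls over all genes. RANKL in NCsh libraries gave 1214 higher and 439 lower genes, and after median-ratio scaling 800 and 836. The hairpin with RANKL gave 986 and 2171, and after scaling 1580 and 1680. RANKL averaged over hairpins gave 1885 and 1059 before and 1412 and 1585 after, the averaged hairpin 1678 and 2809 before and 2209 and 2386 after. Depth limits Tfec most, since 86 to 303 tags stand behind its values.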
